A study of Mus musculus with 24 samples.

Results

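The 9 genes described here were 5 matrix metalloproteinases, Mmp12, Mmp3, Mmp2, Mmp14 and Mmp19, and the 4 tissue inhibitors of metalloproteinases, Timp1, Timp2, Timp3 and Timp4. They were taken by symbol from the 22274 genes of the table, and all 9 were present. In brief, Mmp12, Mmp3, Mmp2, Mmp14, Mmp19 and Timp1 were higher in every lesioned hypothalamic library than in every unlesioned one used, Timp1 was lower at day 10 than at day 3, and Timp2 and Timp3 stayed within a narrow range in the hypothalamus. None of the 9 differed with growth hormone (GH) by the test used, which over all hypothalamic libraries says little about Mmp12 and Mmp3.

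Matrix metalloproteinases are zinc enzymes that cut proteins of the extracellular matrix, such as collagens, elastin and laminins, and also release growth factors and cytokines from cell surfaces. Most are made as inactive precursors that another protease must cut, and the tissue inhibitors block the active site of the mature enzymes. In the brain these enzymes take part in the opening of the blood-brain barrier, in the movement of leukocytes and in scar formation after injury, and macrophages, microglia, astrocytes, endothelial cells and meningeal fibroblasts can all make them.

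RNA was sequenced from 24 samples of mice (male C57BL/6J per the study's methods) in 8 groups of 3. The hypothalamus, taken with the supraoptic and paraventricular nuclei, came from sham-operated mice without GH (SHAM) and with GH (SHAM-GH), from mice whose pituitary stalk had an electrical lesion (PEL) at day 3 (PEL_3d) or day 10 (PEL_10d), and from lesioned mice given GH (PEL_3d-GH, PEL_10d-GH). The hippocampus came from sham mice (HIP-SHAM) and from lesioned mice at day 10 (HIP-PEL_10d), both without GH. The sham samples are labelled day 0, so day 3 and day 10 had no sham of their own time, and the age and the GH dose are not given in the sources used here. The lesion is made at the pituitary stalk, through which the axons of vasopressin and oxytocin neurons run, and the tissue was bulk, so many cell types were read together. The labels do not say that replicates were separate animals, and the p-values measure the spread between these samples. The total count ran from 15095267 to 17973494 per library.

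Several libraries stood apart. The library titled SHAM replicate 1 had a summed level of 14 hypothalamic markers of 9.90 FPKM (fragments scaled by gene length and library size), against 948 to 1437 in the other 5 SHAM and SHAM-GH libraries, with Avp at 0.453 FPKM and Oxt at 1.46 FPKM. The library titled HIP-SHAM replicate 1 had 1209 FPKM of the same hypothalamic markers, against 1.99 to 5.46 FPKM in the other 5 hippocampal libraries. Both went against their labels and were left out of the tests below, and values with all labelled libraries are given for calls that change. The library titled HIP-SHAM replicate 3 carries a hypothalamus tissue label, but its hypothalamic markers were as low as those of the other hippocampal libraries and it was kept by its title. The library PEL_10d-GH replicate 3 had Pomc, the precursor of pituitary melanocortins, at 5479 FPKM and Prl, prolactin, at 32.4 FPKM, against 0.134 to 80.2 FPKM and 0 to 5.05 FPKM in the other 23 libraries. It was kept, and each test that held it was also run without it, while levels, counting ratios, marker sums and correlations include it.

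By the GRCm38 annotation (GENCODE M21), Mmp12 (ENSMUSG00000049723) spans chr9:7344381-7369499 and Mmp3 (ENSMUSG00000043613) chr9:7445822-7455975, both on the plus strand. On the same strand, Mmp2 (ENSMUSG00000031740) spans chr8:92827291-92853420, Mmp14 (ENSMUSG00000000957) chr14:54431612-54445364, Mmp19 (ENSMUSG00000025355) chr10:128790910-128800824, Timp1 (ENSMUSG00000001131) chrX:20870166-20874735 and Timp3 (ENSMUSG00000020044) chr10:86300372-86349506. On the minus strand lie Timp2 (ENSMUSG00000017466, chr11:118301069-118355740) and Timp4 (ENSMUSG00000030317, chr6:115241892-115252205). Timp1, Timp3 and Timp4 each lie across a synapsin gene on the other strand (Syn1, Syn3 and Syn2), Mmp12 overlaps the end of Mmp1b, Mmp19 overlaps Tmem198b, and Timp2 overlaps Cep295nl on its own strand. Whether counting used the strand is not stated, so reads in shared bases cannot be told apart. Mmp1b itself was listed at 0 to 0.044 FPKM in all 24 libraries. Tmem198b was at 3.52 to 4.53 FPKM in the unlesioned hypothalamic libraries used, 7.19 to 9.28 FPKM at day 3 and 4.52 to 6.22 FPKM at day 10, and the part of shared reads in the levels of Mmp19 was not tested.

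The starts of Mmp12, Mmp3 and Timp1 are shown because these genes had the largest fold changes. RefSeq (GRCm38.p6) gave promoter windows for 7 of the 9 genes, with none for Mmp2 and Mmp19 and with a pair of starts for Mmp12. The 250 bases before each start were searched on both strands for AP-1 (TGANTCA), PEA3 (AGGAAG) and STAT (TTCNNNGAA) motifs, which 6.75%, 29.5% and 7.02% of 32851 such windows hold. Capitals mark the matches, none of which overlap each other. The Mmp12 window (chr9:7347124-7347373, plus strand) precedes its second start and lies in an intron of the transcripts that begin further upstream. The Mmp3 window is chr9:7445572-7445821 and the Timp1 window chrX:20869916-20870165, both on the plus strand and just before the gene.
Mmp12: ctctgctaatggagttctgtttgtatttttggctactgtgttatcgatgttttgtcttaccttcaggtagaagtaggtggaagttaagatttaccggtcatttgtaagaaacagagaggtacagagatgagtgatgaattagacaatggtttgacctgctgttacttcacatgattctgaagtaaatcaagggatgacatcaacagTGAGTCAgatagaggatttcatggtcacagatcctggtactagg
Mmp3: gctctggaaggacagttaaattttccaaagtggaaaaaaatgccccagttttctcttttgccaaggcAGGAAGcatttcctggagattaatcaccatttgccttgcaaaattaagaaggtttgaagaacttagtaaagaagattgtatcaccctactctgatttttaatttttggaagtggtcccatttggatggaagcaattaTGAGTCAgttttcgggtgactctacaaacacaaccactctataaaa
Timp1: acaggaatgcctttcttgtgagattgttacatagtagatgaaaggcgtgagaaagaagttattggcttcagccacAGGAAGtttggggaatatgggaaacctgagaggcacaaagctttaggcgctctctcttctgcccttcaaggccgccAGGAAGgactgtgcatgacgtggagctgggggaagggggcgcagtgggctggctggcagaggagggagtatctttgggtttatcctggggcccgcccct
An AP-1 match stood 44 bases before the second start of Mmp12 and 46 bases before the start of Mmp3. Mmp3 also had a PEA3 match at 183 bases, and Timp1 had PEA3 matches at 175 and 99 bases and no AP-1 match in this window. The window of the first Mmp12 start (chr9:7344147-7344396) had 1 PEA3 match at 87 bases and no AP-1 match. Which Mmp12 start was used in these libraries was not tested. Timp4, Timp3 and Mmp14 had 1 PEA3 match each, at 111, 204 and 209 bases, the Timp2 window had no match of the 3 motifs, and no window of these genes had a STAT match. These matches describe letters in the windows and were not tested for binding.

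In the 5 unlesioned hypothalamic libraries used (SHAM replicates 2 and 3 and the 3 SHAM-GH libraries), Timp2, Timp3 and Timp4 were the most abundant of the 9. The median level per length was 204 FPKM for Timp2, 65.7 FPKM for Timp3 and 14.4 FPKM for Timp4, followed by Mmp14 at 11.02 FPKM and Mmp2 at 1.85 FPKM. Timp1 (median 0.750 FPKM) and Mmp19 (0.491 FPKM) overlapped in their ranges, and Mmp12 and Mmp3 had medians of 0. In the 12 lesioned hypothalamic libraries the order was Timp2 (201 FPKM), Timp3 (70.4), Mmp14 (23.4), Timp4 (17.5), Mmp12 (12.6), Timp1 (11.3), Mmp2 (6.64), Mmp19 (2.67) and Mmp3 (1.27). Timp2 did not overlap with Timp3, nor Timp3 with Mmp14, whereas every later pair of neighbours in this order overlapped in range, and Mmp12 (5.09 to 83.2 FPKM) also reached into the range of Timp3 (51.7 to 86.2 FPKM). The 5 metalloproteinases together made up 2.84% to 4.93% of the summed FPKM of the 9 genes in unlesioned hypothalamus and 8.67% to 28.9% in lesioned hypothalamus. Because the tissue was bulk, a change in the number of cells that make a transcript and a change in transcript per cell cannot be told apart.

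**Figure D1:**
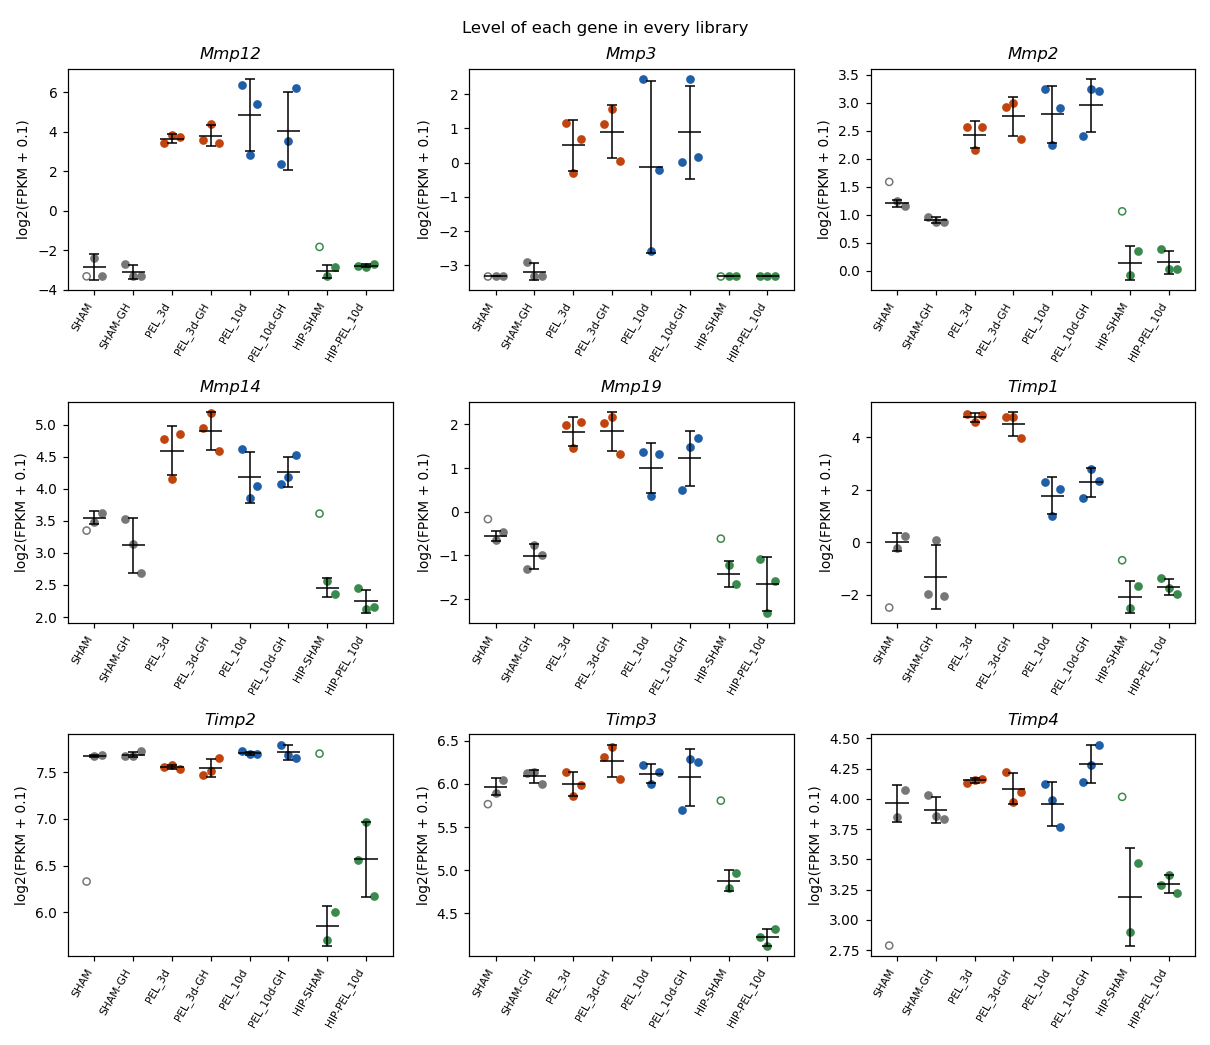
Level of the 9 genes in all 24 libraries as log2(FPKM + 0.1), by group; filled points are libraries used, open points are SHAM replicate 1 and HIP-SHAM replicate 1, and the line and bar give the mean and SD of the filled points. The 12 lesioned hypothalamic libraries lie above the 5 unlesioned ones for the 5 Mmp genes and Timp1, while Timp2, Timp3 and Timp4 overlap.

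The first question was which of the genes differed between lesioned and unlesioned hypothalamus over both days and both GH states. Of the 9 genes, 7 were higher by the quasi-likelihood test of edgeR, with p adjusted after Benjamini and Hochberg over 15337 genes, and 0 were lower. Over all genes tested, 28.2% were higher and 25.6% lower in this comparison, and the median log2 fold change was 1.75 over the 9 genes against 0.00 over all genes. For 6 of the 9 genes every lesioned library exceeded every unlesioned one in FPKM, which held for 10.3% of all genes tested. The same count of 7 passed with all labelled libraries. The unlesioned libraries of a GH state served as controls for both days, so the comparisons by day below share them.

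Mmp12 encodes macrophage metalloelastase, an elastin-cutting enzyme known mainly from macrophages. It was close to absent in unlesioned hypothalamus. The SHAM libraries had 0.091 and 0 FPKM and the SHAM-GH libraries 0.054, 0 and 0 FPKM, which came to 3 counts over the 5 libraries. At day 3 it stood at 10.6, 14.1 and 13.1 FPKM in PEL_3d and at 12.05, 21.0 and 10.6 FPKM in PEL_3d-GH. At day 10 the libraries spread widely, with 83.2, 7.002 and 41.8 FPKM in PEL_10d and 5.09, 11.7 and 75.6 FPKM in PEL_10d-GH. All lesioned libraries were far above all unlesioned ones, and at day 10 the highest library of each group was over 10 times its lowest. With 7290 counts against 3, the ratio of lesioned to unlesioned libraries was 992, with an exact 95% interval of 339 to 4811 that covers counting error only. The difference passed the test (adjusted p = 2.46e-05), and the 2 libraries above 70 FPKM included PEL_10d-GH replicate 3, in which Pomc was high.

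By group, the counting ratio of Mmp12 was 280 (77.2 to 2312) for PEL_3d over SHAM and 977 (270 to 8073) for PEL_10d over SHAM. The edgeR adjusted p was 3.4e-07 at day 3 and 0.0104 at day 10. Against SHAM-GH, the ratio was 1034 for PEL_3d-GH (185 to 40866, adjusted p = 1.12e-06) and 2282 for PEL_10d-GH (409 to 90165, adjusted p = 0.00203), each from 1 count in SHAM-GH. These sizes rest on few libraries. Both SHAM counts were in replicate 2, PEL_10d replicate 1 held 1930 of the 3048 counts of its group, and PEL_10d-GH replicate 3 held 1919 of 2321. The fitted log2 fold change in PEL_10d was 9.76, and 8.92 without PEL_10d replicate 1, and in PEL_10d-GH it was 10.65, and 8.78 without PEL_10d-GH replicate 3. Over all alternatives it ran from 6.99 to 11.18 for PEL_3d, from 8.81 to 12.99 for PEL_10d, from 9.06 to 11.46 for PEL_3d-GH and from 8.78 to 12.56 for PEL_10d-GH, with the highest value in each where the library with the unlesioned counts was left out.

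Mmp3 encodes stromelysin, which cuts many matrix proteins and activates other metalloproteinases. It lies on the same stretch of chromosome 9 as Mmp12 and was likewise near absent without a lesion, with 0 counts in both SHAM libraries and 1 count over the 3 SHAM-GH libraries. At day 3 it was at 2.11, 0.708 and 1.52 FPKM in PEL_3d and at 2.07, 2.85 and 0.933 FPKM in PEL_3d-GH. At day 10 it was at 5.27, 0.067 and 0.757 FPKM in PEL_10d and at 0.916, 5.37 and 1.03 FPKM in PEL_10d-GH. Each day 10 group thus held 1 library above 5 FPKM, and PEL_10d replicate 2, with 2 counts, was close to the unlesioned level. Mmp3 was higher in lesioned hypothalamus (ratio 279, interval 49.9 to 11028, adjusted p = 4.03e-04). PEL_3d was at least 26.8-fold higher than SHAM (adjusted p = 5.06e-04), taking the floor of 3 counts over the SHAM group. In PEL_10d, 150 of the 173 counts came from replicate 1, and the difference from SHAM did not pass the test (adjusted p = 0.113, and up to 0.388 under the alternatives), although it passed with DESeq2 (0.0358), in 1 fit over all 6 hypothalamic groups (0.0478) and without PEL_10d replicate 2 (0.0213). PEL_10d-GH against SHAM-GH passed (ratio 209, interval 37.2 to 8309, adjusted p = 0.00191), with 153 of the 213 counts in PEL_10d-GH replicate 2 and the single SHAM-GH count in replicate 1. The fitted log2 fold change there ran from 5.96 without the former library to 9.19 without the latter.

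Mmp2 encodes gelatinase A, a constitutive enzyme of brain that cuts basement membrane collagen. SHAM libraries stood at 2.28 and 2.12 FPKM, and SHAM-GH libraries at 1.85, 1.73 and 1.73 FPKM. Lesioned libraries were at 5.85, 4.35 and 5.82 FPKM in PEL_3d, at 7.52, 7.85 and 5.02 FPKM in PEL_3d-GH, at 9.34, 4.64 and 7.43 FPKM in PEL_10d and at 5.23, 9.43 and 9.17 FPKM in PEL_10d-GH. The 2 sets did not overlap, and the log2 fold change of lesioned over unlesioned hypothalamus was 1.75 (SE 0.18, adjusted p = 8.2e-07). By comparison it was 1.26 at day 3 and 1.67 at day 10 against SHAM, and 1.90 and 2.13 against SHAM-GH, all past the threshold.

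Mmp14 encodes a membrane-bound metalloproteinase that cuts collagen and activates the Mmp2 precursor in a complex with Timp2. The SHAM libraries had 11.02 and 12.2 FPKM and the SHAM-GH libraries 11.4, 8.74 and 6.31 FPKM. It stood at 27.3, 17.7 and 28.7 FPKM in PEL_3d, at 30.9, 36.1 and 24.0 FPKM in PEL_3d-GH, at 24.5, 14.5 and 16.5 FPKM in PEL_10d and at 16.7, 18.003 and 22.9 FPKM in PEL_10d-GH. The lowest lesioned library, PEL_10d replicate 2, was only slightly above the highest unlesioned one. The log2 fold change over all lesioned libraries was 1.15 (SE 0.16, adjusted p = 1.69e-05). Against SHAM it was 1.07 at day 3 (adjusted p = 8.77e-04) and 0.65 at day 10 (adjusted p = 0.0755), so the day 10 difference did not pass without GH. It did pass with DESeq2 (0.0115), with no filter (0.0406) and without PEL_10d replicate 1 (0.049) or 2 (0.0206). Against SHAM-GH it was 1.74 and 1.11, both past the threshold.

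Mmp19 encodes a metalloproteinase that cuts basement membrane proteins and is found in many tissues. Unlesioned libraries ran from 0.300 to 0.620 FPKM. Lesioned libraries were at 3.89, 2.65 and 4.04 FPKM in PEL_3d, at 3.96, 4.43 and 2.41 FPKM in PEL_3d-GH, at 2.47, 1.18 and 2.40 FPKM in PEL_10d and at 1.31, 2.70 and 3.11 FPKM in PEL_10d-GH. None overlapped the unlesioned range, and the log2 fold change was 2.45 (SE 0.26, adjusted p = 9e-07). It passed in all 4 comparisons by day and GH state, with 2.49 and 1.67 against SHAM and 3.13 and 2.49 against SHAM-GH.

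Timp1 encodes the inducible inhibitor, made by activated astrocytes and many other cells, which blocks most soluble metalloproteinases. The SHAM libraries held 0.750 and 1.09 FPKM of it and the SHAM-GH libraries 0.153, 0.973 and 0.140 FPKM, from 2 to 15 counts a library. At day 3 it was at 29.7, 23.8 and 28.6 FPKM in PEL_3d and at 27.6, 27.5 and 15.7 FPKM in PEL_3d-GH. At day 10 it was at 4.87, 1.89 and 3.998 FPKM in PEL_10d and at 3.12, 6.94 and 5.02 FPKM in PEL_10d-GH. The 3 sets of libraries, unlesioned, day 10 and day 3, did not overlap. The log2 fold change of lesioned over unlesioned hypothalamus was 3.97 (SE 0.35, adjusted p = 9.96e-08), with 4.82 at day 3 (adjusted p = 1.13e-07) and 1.88 at day 10 (adjusted p = 0.0408) against SHAM. Against SHAM-GH it was 5.68 and 3.46, both past the threshold, and 7.23 and 5.01 without SHAM-GH replicate 2, which held 15 of that group's Timp1 counts against 2 in each of the others. Syn1, which lies across Timp1 on the other strand, was at 77.0 to 105 FPKM in the day 3 libraries, at 98.6 to 118 FPKM in the day 10 libraries and at 113 to 123 FPKM in the unlesioned ones used.

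The other inhibitors moved little. Timp2, which inhibits Mmp2 and at low levels helps Mmp14 to activate it, ranged from 203 to 211 FPKM in unlesioned and from 177 to 222 FPKM in lesioned hypothalamus (log2 fold change -0.07, SE 0.03, adjusted p = 0.0785). It passed in 3 of 23 alternatives, with DESeq2 (0.033) and without PEL_10d-GH replicate 1 (0.0477) or PEL_3d-GH replicate 3 (0.0242). With all labelled libraries it was at 0.07 (adjusted p = 0.705). Timp3, which is bound to the matrix and also inhibits ADAM17, ranged from 59.4 to 70.5 FPKM and from 51.7 to 86.2 FPKM (0.08, SE 0.09, adjusted p = 0.44). Timp4 was higher by 0.20 on the log2 scale (SE 0.04, adjusted p = 9.31e-04), although its ranges of 14.2 to 16.7 FPKM and 13.5 to 21.8 FPKM overlapped.

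At day 3 without GH, 6 of the 9 genes were higher and 1, Timp2, was lower in PEL_3d than in SHAM, where 22.3% of all 14887 genes tested were higher and 18.2% lower. Timp2 was at 188, 191 and 185 FPKM against 203 and 205 FPKM (log2 fold change -0.17, SE 0.06, adjusted p = 0.0409). This call did not hold when all labelled libraries were used, where the sign turned (0.15, adjusted p = 0.835), and SHAM replicate 1 alone had 80.3 FPKM. It was also lost without either SHAM library used and without PEL_3d replicate 1 or 3 (adjusted p up to 0.201). In PEL_3d-GH against SHAM-GH, 7 of the 9 genes were higher and 0 lower (26.9% and 25.1% of 14743 genes), and the seventh was Timp4 (0.22, adjusted p = 0.0265). The Timp4 call was lost without PEL_3d-GH replicate 1 or 2 and without SHAM-GH replicate 1 or 2 (adjusted p up to 0.105). Timp2 was at -0.16 in PEL_3d-GH and did not pass (adjusted p = 0.0743). It passed in 4 of 12 alternatives, among them DESeq2 (0.0484), 1 fit over all 6 hypothalamic groups (0.0236) and without PEL_3d-GH replicate 3 (0.00304). Without that library Timp3 also passed as higher (0.27, adjusted p = 0.00176).

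At day 10 without GH, 4 of the 9 genes, Mmp12, Mmp2, Mmp19 and Timp1, were higher in PEL_10d than in SHAM, where 7.98% of 14790 genes were higher and 1.44% lower. With all labelled libraries only Mmp12 passed, and Mmp2 (adjusted p = 0.0722), Mmp19 (adjusted p = 0.117) and Timp1 (adjusted p = 0.268) did not. Without SHAM replicate 2 or without SHAM replicate 3, which leaves 1 SHAM library, 0 passed, and Timp1 also failed without PEL_10d replicate 1 or 3 (adjusted p up to 0.295 over all alternatives). In PEL_10d-GH against SHAM-GH, 7 were higher and 0 lower (17.7% and 13.3% of 14686 genes). Timp4 was one of them, at 17.5, 19.3 and 21.8 FPKM against 16.3, 14.4 and 14.2 FPKM (log2 fold change 0.39, SE 0.07, adjusted p = 0.0022), while in PEL_10d it was at 17.3, 15.8 and 13.5 FPKM and did not differ from SHAM by the test (-0.01, SE 0.09, adjusted p = 0.982).

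**Figure D2:**
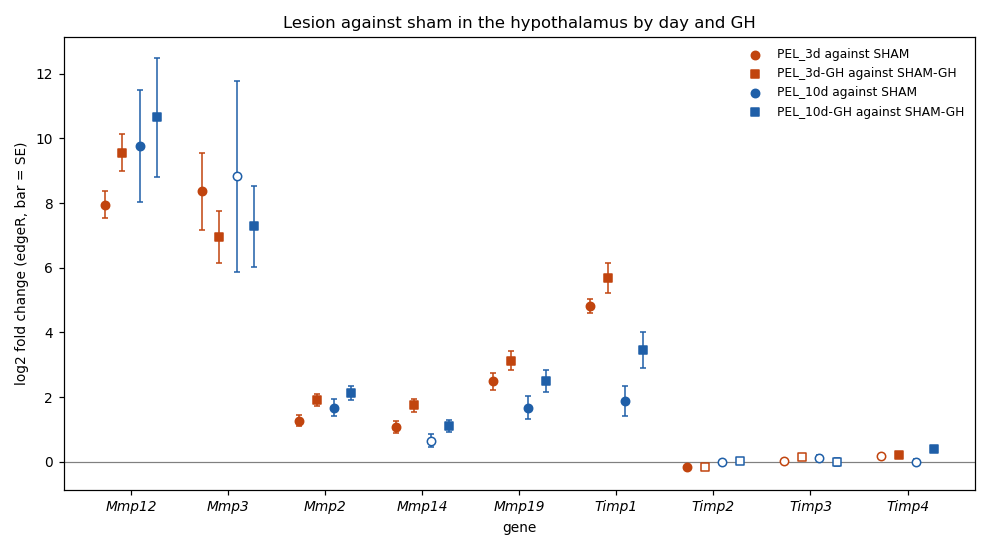
Log2 fold change of the 9 genes by edgeR, each lesioned group against the sham group of the same GH state. PEL_3d (circles) and PEL_3d-GH (squares) are in red and PEL_10d and PEL_10d-GH in blue. Bars are standard errors derived from the F statistic of the test, and filled symbols passed an adjusted p of 0.05. Timp1 is the gene whose day 10 values (1.88 and 3.46) lie furthest below its day 3 values (4.82 and 5.68), and the values of Mmp12 and Mmp3 rest on 0 to 2 counts in a sham group.

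The second question was what changed between day 3 and day 10 after the lesion. Without GH, 1 of the 9 genes passed, where 18.5% of 14807 genes did. That gene was Timp1, lower in PEL_10d than in PEL_3d by a log2 fold change of -2.94 (SE 0.25, adjusted p = 7.74e-05). Mmp12 had the opposite sign and did not pass (1.82, SE 0.63, adjusted p = 0.0766), except without PEL_10d replicate 2 (adjusted p = 3.77e-04). Mmp19 was at -0.82 (SE 0.27, adjusted p = 0.0635) and passed with DESeq2 (0.0238) and without PEL_10d replicate 1 (0.0361) or PEL_3d replicate 2 (0.0396). Timp2 was at 0.18 (SE 0.05, adjusted p = 0.0524) and passed with DESeq2 (0.0099) and in 1 fit over all 6 hypothalamic groups (0.0219). Mmp2 was at 0.42 (SE 0.22, adjusted p = 0.223) and passed without PEL_10d replicate 2 (0.0316), and Mmp14 was at -0.41 (SE 0.21, adjusted p = 0.211) and passed without PEL_10d replicate 1 (0.0491). With GH, Timp1 (-2.24, SE 0.30, adjusted p = 0.00227) and Mmp14 (-0.64, SE 0.15, adjusted p = 0.0235) were lower in PEL_10d-GH than in PEL_3d-GH, where 15.6% of 14838 genes passed. Mmp14 no longer passed without PEL_10d-GH replicate 1 or 2, or without PEL_3d-GH replicate 1 or 2 (lowest and highest adjusted p over all alternatives 0.00129 and 0.108). Timp2 was at 0.16 with GH (SE 0.08, adjusted p = 0.212). It passed in 1 fit over all 6 hypothalamic groups (0.0338) and without PEL_3d-GH replicate 3 (0.0473).

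The ratio of Mmp12 to Timp1 in FPKM ran from 0.356 to 0.762 in the 6 day 3 libraries and from 1.63 to 17.1 in the 6 day 10 libraries. The 2 days did not overlap in this ratio, which was chosen after the values were seen and is given as a description without a test. Within day 10, the 3 libraries with the highest ratio (PEL_10d replicates 1 and 3 and PEL_10d-GH replicate 3) had Timp1 levels between 3.998 and 5.02 FPKM; Timp1 over the whole day ran from 1.89 to 6.94 FPKM.

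**Figure D3:**
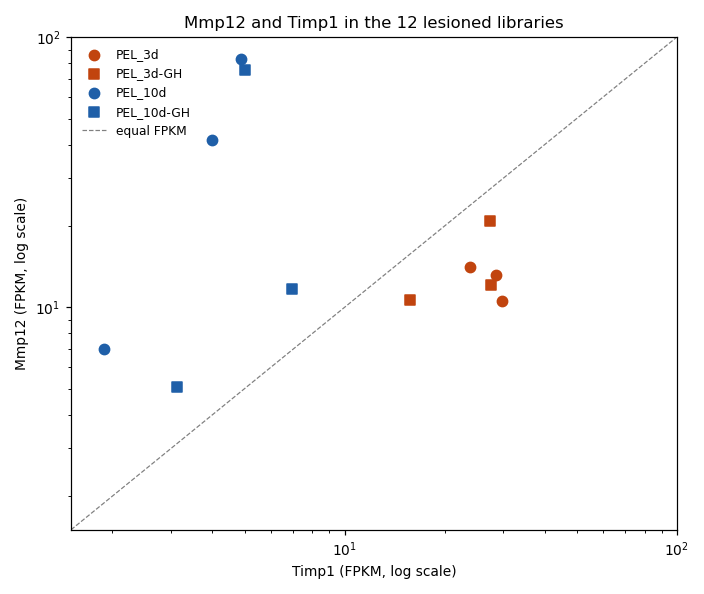
Mmp12 against Timp1 in FPKM (both axes logarithmic) in the 12 lesioned hypothalamic libraries, with day 3 in red, day 10 in blue, circles without GH and squares with GH; the dashed line marks equal FPKM. All 6 day 3 libraries lie below the line (ratios 0.356 to 0.762) and all 6 day 10 libraries above it (1.63 to 17.1).

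The third question was whether GH altered these genes. Over all hypothalamic libraries, 0 of the 9 genes differed between GH and no GH by edgeR's adjusted p or by DESeq2, and 0 had an unadjusted p under 0.05, where 0.411% of 15337 genes passed. The log2 difference was 0.07 for Mmp2 (SE 0.15), -0.01 for Mmp14 (SE 0.14), -0.13 for Mmp19 (SE 0.21), -0.24 for Timp1 (SE 0.31), 0.02 for Timp2 (SE 0.03), 0.14 for Timp3 (SE 0.08) and 0.08 for Timp4 (SE 0.04). For Mmp12 and Mmp3 the standard errors of 2.80 and 2.13 were so wide that this comparison says little about them.

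Within the lesioned groups, 0 of the 9 genes passed at day 3 (PEL_3d-GH against PEL_3d, where 0.027% of 14798 genes passed) and 0 at day 10 (PEL_10d-GH against PEL_10d, where 0% of 14763 genes passed). DESeq2 also gave 0 of the 9 in both, with 59 and 36 genes called in all. At an unadjusted p under 0.05, 1006 and 906 genes stood in edgeR. They included Timp3 at day 3 (0.0192 unadjusted, adjusted p = 0.695) and Timp4 at day 10 (log2 fold change 0.31, SE 0.08, 0.00359 unadjusted, adjusted p = 0.654). Between SHAM-GH and SHAM, 7 of the 9 genes could be tested and 0 passed in edgeR or DESeq2, where 1.09% of 14539 genes passed, and 1 of the 7 (Timp3) had an unadjusted p under 0.05.

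The difference of the lesion effect between GH states was tested as an interaction. At day 3, 0 of the 9 genes passed in edgeR or DESeq2 (0.0462% of 15164 genes passed), and 2 of them, Mmp2 (0.64, SE 0.26) and Mmp14 (0.67, SE 0.31), had unadjusted p values of 0.028 and 0.0493 (adjusted p = 0.398 and 0.474). At day 10, 0 of the 9 passed in either tool (0% of 15116 genes passed in edgeR, 1366 at an unadjusted p under 0.05, and 98 passed in DESeq2), and Timp4 had 0.39 (SE 0.10, 0.00273 unadjusted, adjusted p = 0.277). Thus 4 of the 9 genes passed at day 10 without GH and 7 with GH, while no difference between the day 10 lesion effects passed the test.

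In the hippocampus the inducible genes were at or near 0 in both groups. Mmp3 had 0 counts in all 6 hippocampal libraries, Mmp12 had 0 or 1 count in each of the 5 used, and Timp1 had 1 to 4 counts. Of the 6 genes that could be tested, 1 passed in HIP-PEL_10d against HIP-SHAM, where 6.15% of 14191 genes passed. It was Timp3, at 18.6, 17.3 and 19.96 FPKM in HIP-PEL_10d against 27.7 and 31.1 FPKM in HIP-SHAM (log2 fold change -0.68, SE 0.08, adjusted p = 0.00388). The call was lost with all labelled libraries (-0.96, adjusted p = 0.344) and without HIP-SHAM replicate 3. Markers of the choroid plexus moved with it. Their summed level over 8 genes was 4336 to 5433 FPKM in the 2 HIP-SHAM libraries and 38.7 to 797 FPKM in HIP-PEL_10d, with no gene of the list at 0, and their part in the Timp3 difference was not tested. Timp2 had 51.9 and 64.0 FPKM in HIP-SHAM and 94.4, 125 and 71.9 FPKM in HIP-PEL_10d and did not pass (0.73, SE 0.20, adjusted p = 0.0694), but passed with no filter and without HIP-PEL_10d replicate 1 or 3 (lowest adjusted p 0.00615). With all labelled libraries it was at -0.04 (adjusted p = 0.981). Mmp2 (-0.02, SE 0.26), Mmp14 (-0.23, SE 0.14), Mmp19 (-0.30, SE 0.59) and Timp4 (0.17, SE 0.10) did not pass either.

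At day 10 after the lesion, 8 of 8 genes tested were higher in hypothalamus (PEL_10d) than in hippocampus (HIP-PEL_10d), where 60.6% of 14561 genes differed in either direction. Mmp12 and Timp1, with 1 and 2 to 4 counts per HIP-PEL_10d library, passed the filter only through PEL_10d, so their direction was fixed. The log2 difference was 2.56 for Mmp2, 1.74 for Mmp14, 3.07 for Mmp19, 3.79 for Timp1, 1.65 for Timp3, 0.84 for Timp2 and 0.43 for Timp4, and Mmp12 had 3 counts in all over the hippocampal group. Mean levels also lay apart without a lesion, between the SHAM and HIP-SHAM libraries used. These means were 204 and 58 FPKM for Timp2, 62.6 and 29.4 for Timp3, 11.6 and 5.41 for Mmp14 and 2.2 and 1.01 for Mmp2. The lesion effect at day 10 itself differed between the regions for 2 of the 9 genes, where 10.7% of 15053 genes passed. These were Timp3 (difference of log2 fold changes 0.78, SE 0.12, adjusted p = 0.0024) and Mmp2 (1.67, SE 0.40, adjusted p = 0.0237). The edgeR term says little about Mmp12 (8.92, SE 12.04, adjusted p = 0.682) and Mmp3 (8.73, SE 60842.03), which were near absent in hippocampus. Mmp12 passed in 1 of 16 alternatives, DESeq2 (8.94, adjusted p = 5.17e-04). With all labelled libraries 0 passed, and the adjusted p values of Timp3 and Mmp2 were 0.0881 and 0.0985. Mmp2 also failed without HIP-PEL_10d replicate 2, HIP-SHAM replicate 3, SHAM replicate 2 or SHAM replicate 3 (adjusted p up to 0.139).

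The wider set of matrix enzymes was described from lists of related genes over lesioned against unlesioned hypothalamus. Over all genes tested, 28.2% were higher and 25.6% lower in this comparison, which applies to each list below. Of 18 other matrix metalloproteinases, 13 could be tested, 8 were higher and 1 was lower, with a median log2 fold change of 0.67. Against SHAM, 6 of 13 tested were higher and 1 lower in PEL_3d (median 0.65), where 22.3% and 18.2% of all genes were. In PEL_10d 0 of 10 were higher and 1 lower (median 0.00), where 7.98% and 1.44% of all genes were. Against SHAM-GH, 7 of 13 were higher and 2 lower in PEL_3d-GH (median 1.27), where 26.9% and 25.1% of all genes were. In PEL_10d-GH 4 of 11 were higher and 0 lower (median 0.43), where 17.7% and 13.3% of all genes were. Mmp8, the neutrophil collagenase, rose from a median of 0.053 to 1.09 FPKM (log2 fold change 3.47, adjusted p = 5.98e-06), and Mmp11, stromelysin-3, from 1.22 to 2.92 FPKM (1.07, adjusted p = 4.14e-05). Mmp13, a collagenase, had a median of 0 in unlesioned and 0.856 FPKM in lesioned libraries (adjusted p = 7.66e-05), and Mmp27 had 0 and 0.357 FPKM (adjusted p = 1.22e-04). Mmp10 also had an unlesioned median of 0. Mmp13, Mmp27 and Mmp10 entered the counts and medians above only through the lesioned libraries, so their direction there was fixed. The gene that fell was Mmp17, a membrane-anchored enzyme (-0.41, adjusted p = 2.96e-04). Mmp9, gelatinase B, was higher at day 3, by 1.54 in PEL_3d (adjusted p = 0.00409) and 1.61 in PEL_3d-GH (adjusted p = 3.07e-04), and at day 10 stood at -0.31 and -0.17, which did not pass. It was lower in PEL_10d than in PEL_3d by -1.84 (adjusted p = 0.00328).

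Of 15 tested activators, receptors and other inhibitors of matrix proteases, 13 were higher and 0 lower, with a median log2 fold change of 1.62. Plau, the urokinase that starts the plasmin cascade upstream of several metalloproteinases, was higher by 4.12 (0.453 to a level of at least 2.74 FPKM in every lesioned library, adjusted p = 1.93e-08). Ctss and Ctsb, lysosomal cathepsins, were higher by 2.85 and 1.62 (adjusted p = 1.2e-10 and 7.31e-09), and Cd44, a hyaluronan receptor, by 2.10 (adjusted p = 2.51e-09). Reck, a membrane inhibitor of metalloproteinases, did not pass (-0.11, adjusted p = 0.477).

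Of 15 ADAM and ADAMTS proteases, 12 were higher and 1, Adamts2, was lower (-0.53, adjusted p = 3.23e-05), with a median of 0.84. Adam8, found on leukocytes and microglia, had the largest log2 fold change of the 4 with the lowest p (5.41, adjusted p = 3.98e-07), and the others were Adam17, the TNF-releasing enzyme (1.29), Adam9 (0.85) and Adam15 (0.51). Of 14 brain matrix substrates, 8 were higher and 0 lower, with a median of 0.43. Spp1, osteopontin (4.47, adjusted p = 1.03e-07), Tnc, tenascin-C (2.07), Nid1, nidogen (1.75) and Fn1, fibronectin (1.77) had the lowest p.

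Markers of the cell types that can make these enzymes moved with the lesion too. The summed level of 12 microglia and macrophage markers was 66.8 to 91.8 FPKM in unlesioned hypothalamus, 593 to 1114 FPKM at day 3 and 247 to 600 FPKM at day 10. All 12 were higher in lesioned hypothalamus (median log2 fold change 2.49), among them Csf1r (1.83), Cx3cr1 (1.85), Itgam (2.30) and Trem2 (3.31). All 10 reactive astrocyte markers were higher (median 2.23), with sums of 172 to 203, 1029 to 1674 and 536 to 1078 FPKM, and with Gfap (2.42), Serpina3n (2.19), Vim (2.48) and Cd109 (1.99) at the lowest p. Of 7 tested markers of blood monocytes and neutrophils, 6 were higher (median 2.07), with sums of 2.29 to 6.87, 13.3 to 50.6 and 6.75 to 45 FPKM, among them Chil3 (3.81), Ccr2 (1.99), Plac8 (3.56) and Ly6c2 (4.49).

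Of 10 markers of fibroblasts and leptomeninges, 7 were higher (median 1.26), with sums of 102 to 172, 192 to 523 and 213 to 519 FPKM, and Col3a1 (3.12), Col1a1 (2.54), Lum (2.03) and Col1a2 (1.88) had the lowest p. Of 10 markers of endothelium and mural cells, 8 were higher (median 0.46), with sums of 129 to 159, 172 to 244 and 180 to 253 FPKM. No gene of these 5 lists was at 0 in all libraries of a hypothalamic group. The sums at day 3 and day 10 overlapped between 593 and 600 FPKM for microglia and between 1029 and 1078 FPKM for astrocytes, and were otherwise higher at day 3 for these 2 lists. For the other 3 lists they overlapped over most of their range. Choroid plexus markers were low throughout the hypothalamic libraries used (7.93 to 25.3 FPKM in sum). The part that a change in cell types had in the levels of the 9 genes was not tested.

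**Figure D4:**
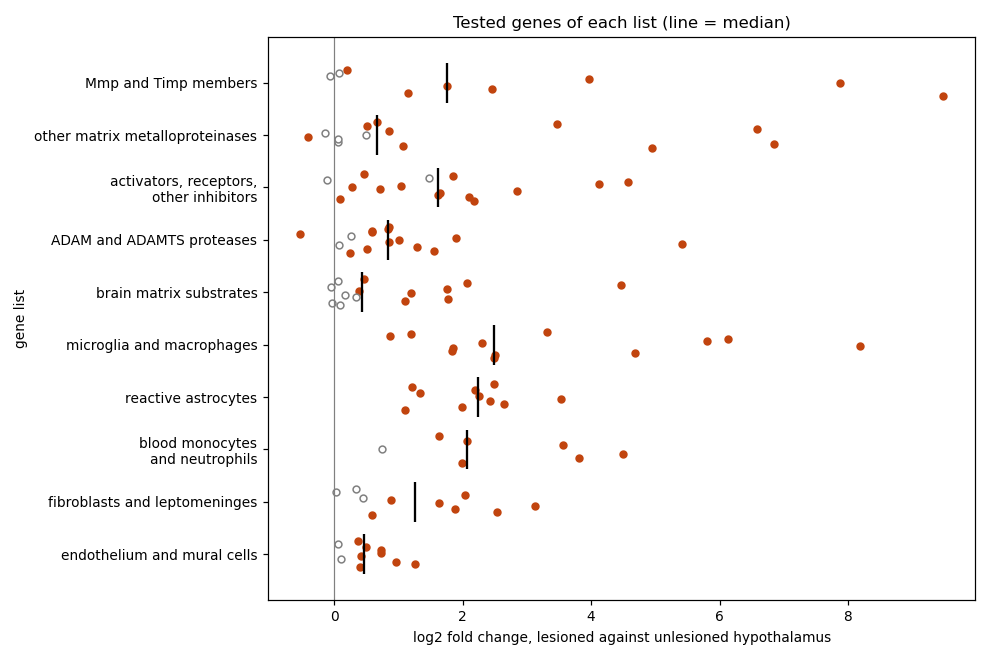
Log2 fold change of each tested gene in lesioned against unlesioned hypothalamus (edgeR), by gene list; filled points passed an adjusted p of 0.05 and the black line is the median of the list. The 9 Mmp and Timp genes run from -0.07 (Timp2) to 9.48 (Mmp12) with a median of 1.75, and the microglial and astrocyte lists have medians of 2.49 and 2.23.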

How the data were processed

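Reads had been aligned with Hisat2 and counted with featureCounts, according to the study's methods, and the build named in the submitters' processing notes is GRCm38 (mm10). The authors deposited 1 table that gives every gene its estimated count and its FPKM in each library, and 8.22% of the estimated counts, in 3410 genes, were not whole and were rounded. Symbols were matched for 22219 of 22274 genes. Total counts ran from 15095267 to 17973494 per library (median 15883700).

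Counts were tested with edgeR 4.0.16 (quasi-likelihood, TMM factors, filterByExpr with a minimum count of 10) under R 4.3.3, on the groups of each comparison, with Benjamini-Hochberg adjustment over all genes tested and a threshold of 0.05. The libraries titled SHAM replicate 1 and HIP-SHAM replicate 1 were left out because their markers went against their labels. The SE beside an edgeR log2 fold change is its absolute value divided by the square root of the quasi-likelihood F statistic. It was thus derived from the test and is unreliable where a group is near 0 counts. FPKM values were used for levels per length only. Lesioned against unlesioned hypothalamus compared the mean of the 4 PEL groups with the mean of SHAM and SHAM-GH. Ratios against groups with 1 to 3 counts have exact 95% intervals for counting error, and ratios against 0 counts use a floor of 3 counts over the group. The fitting code was tested on simulated data. Replicate libraries differed by more than sampling noise in all groups.

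By the rule, the 9 genes were to be named in each comparison, though in some only those past the threshold or with a changed call are given, with up to 4 genes of each further list by lowest p in lesioned against unlesioned hypothalamus and the 3 genes most like each of the 9. Adamts2, Reck, Mmp17, Mmp9, Pomc and Prl were named after their values were seen. The members and lists were chosen with earlier results of these data known. Alternatives were DESeq2 1.42.0, DESeq2 size factors, no filter, a mean count of at least 50, a replicate block, 1 fit over all 6 hypothalamic groups, all labelled libraries, and each library left out in turn.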

Additional observations from a re-analysis of the deposited data

Results flagged for a closer look

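The lesion effect at day 10 differed between hypothalamus and hippocampus for Timp3 and Mmp2 by the interaction term in edgeR. This term says little about Mmp12 and Mmp3, which were near absent in hippocampus. For Timp3 the difference of log2 fold changes was 0.78 (SE 0.12, adjusted p = 0.0024), from 0.13 in hypothalamus and -0.68 in hippocampus. For Mmp2 it was 1.67 (SE 0.40, adjusted p = 0.0237), from 1.67 in hypothalamus and -0.02 in hippocampus. With all labelled libraries the differences were 1.13 and 1.81 and did not pass (adjusted p = 0.0881 and 0.0985). Choroid plexus markers summed to 4336 to 5433 FPKM in the HIP-SHAM libraries used and to 38.7 to 797 FPKM in HIP-PEL_10d, and their part in the Timp3 difference was not tested.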

How the results depend on the processing

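Of 1940 fold changes of single genes recomputed under an alternative, 1770 kept their direction and their side of the threshold, 46 newly passed, 36 no longer passed, 86 that passed in neither fit changed sign and 2 reversed. The count of the 9 genes past the threshold kept within 1.5 times of 7 for lesioned against unlesioned hypothalamus under every alternative run. In PEL_10d against SHAM it was 4, and 1 with all labelled libraries, with 0 to 6 when each library was left out. In PEL_10d against PEL_3d it was 1, and 3 with DESeq2, 2 in 1 fit over all 6 hypothalamic groups and 1 to 3 with each library left out (3 without PEL_10d replicate 1 or 2, and 2 without PEL_3d replicate 2). In PEL_10d-GH against PEL_3d-GH it was 2, with 1 to 3 when each library was left out. In HIP-PEL_10d against HIP-SHAM it was 1, and 2 with no filter, 0 with all labelled libraries and 0 to 2 with each library left out. For the day 3 interaction with GH, leaving out each library gave 0 to 1, the 1 being Mmp2 without PEL_3d-GH replicate 3 (adjusted p = 0.0457). For the day 10 difference between regions it was 2, and 4 with DESeq2, 4 with no filter, 0 with all labelled libraries and 1 to 4 with each library left out. The causes of these changes were not tested. The left-out fits also had fewer libraries, and in them a group of 1 library was assumed to vary like the others. Timp2 in PEL_3d against SHAM turned from -0.17 to 0.15 with all labelled libraries. Timp3 in PEL_10d-GH against SHAM-GH ran from -0.12 to 0.16 with each library left out, and was 0.16 (adjusted p = 0.0469) without PEL_10d-GH replicate 1, against -0.01 with all.

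Replicate numbers were not taken to pair the samples. Among SHAM-GH and the 4 lesioned hypothalamic groups, deviations of same-numbered libraries correlated between -0.297 and 0.214, and not every pair was above 0.1. SHAM and the hippocampal groups were not checked. With the replicate number as a block, the count was 4 in PEL_10d against PEL_3d (with Mmp2, Mmp14 and Mmp19 added, adjusted p = 0.0437, 0.0322 and 0.00518), 1 in PEL_10d-GH against PEL_3d-GH (Mmp14 lost, 0.0772) and 1 in SHAM-GH against SHAM (Mmp14, adjusted p = 6.78e-04), and it stayed within 1.5 times of the unblocked count in the other comparisons. With the block, Mmp3 (6.57, adjusted p = 0.00692) and Mmp14 (0.41, adjusted p = 0.0253) passed in PEL_10d against SHAM, Timp2 passed in PEL_3d-GH against SHAM-GH (0.0485) and Mmp14 in the difference between regions (0.0124), and Timp2 no longer passed in PEL_3d against SHAM (0.11). Depth limits Mmp12, Mmp3 and Timp1, which had 0 to 2, 0 to 1 and 2 to 15 counts in the unlesioned libraries used.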

Other observations

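For each gene, the 3 genes with the most similar pattern were found by Pearson's r of log2(CPM + 1) over the 17 hypothalamic libraries used, among 14322 genes. Because lesioned and unlesioned libraries form separate sets on most of these genes, r mainly describes that shared split and is given without a test. Mmp12 was most like Slamf7 (0.965), Clec12a (0.958) and Hist1h1c (0.948), the first of which encodes a receptor of immune cells. Mmp2 was most like Itgax (0.974), an integrin of myeloid cells, Plat (0.972), the tissue plasminogen activator, and Lbp (0.971), the lipopolysaccharide-binding protein. Mmp14 was most like Dok1 (0.972), Serpinh1 (0.971), a collagen chaperone, and Col3a1 (0.971), a fibrillar collagen. Mmp3 was most like Steap3 (0.92), Myl9 (0.917) and Tpm2 (0.901), of which the latter encode contractile proteins of smooth muscle and other mesenchymal cells. Mmp19 was most like Mdfic (0.989), Mvp (0.989) and Stat6 (0.984).

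Timp1 was most like Tuba1c (0.992), Ifi30 (0.99) and Vim (0.99), an intermediate filament of reactive astrocytes and mesenchymal cells. The other inhibitors, which moved little with the lesion, had different companions. Timp2 was most like Lzts3 (0.949), Cbx7 (0.937) and Dvl1 (0.933), Timp3 like Slc16a12 (0.914), Mrvi1 (0.833) and Fzd2 (0.781), and Timp4 like Ier5l (0.85), Lcn2 (0.846) and Cd81 (0.842).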
